A study of Mus musculus with 4 samples.

Results

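The cytosolic ribosomal protein genes are the 81 genes whose name in the authors' RPKM table has the Rpl, Rps, Rplp or Rpsa form, out of 14683 named genes in that table and 46078 genes in the count table. They comprise 50 genes of the large subunit and 31 of the small subunit. RPKM is a read count scaled to gene length and library size, and the choice by name used no measured value. The ribosome is built from a large and a small subunit, each a folded ribosomal RNA core that carries one copy of most of its proteins. Cells make these proteins in matched amounts, and free surplus protein is degraded. Many of their mRNAs begin with a run of pyrimidines, the terminal oligopyrimidine tract, through which mTOR signalling and the RNA-binding protein Larp1 control their translation and stability.

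The mRNA came from MLE-12 cells, a line with alveolar type 2 features that was derived from lung tumours of mice carrying SV40 large T antigen under a surfactant protein C promoter. Lingo1, the gene named in the genotype, encodes a membrane protein with leucine-rich repeats that acts beside the Nogo receptor in neurons. The groups were Lingo1 KO cells 24 h after a scratch wound, Lingo1 KO cells without a scratch, WT cells 24 h after a scratch and WT cells without a scratch. All groups were MLE-12 cells, and how the KO line was made, or whether it is 1 clone, is not given in the sources used here. Each group was 1 library. No difference below therefore has a replicate check, every fold compares libraries, and each 95% interval covers counting error only. The column letter for the unscratched libraries was read as such by elimination, and all scratch results depend on that reading.

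The libraries held 48333801, 29533746, 27907279 and 26903429 counts in KO scratched, KO unscratched, WT scratched and WT unscratched cells. Lingo1 stood at 41.3 and 41.3 CPM (counts per library, scaled to a fixed total) in the KO scratched and unscratched libraries, against 42.7 and 46.7 CPM in WT, so its mRNA does not check the genotype and KO is used here as the label. Of 5 epithelial markers, 4 passed 1 CPM, with a summed level of 2187 to 2362 CPM. The 8 alveolar type 2 markers, of which 5 passed, summed to 421 and 452 CPM in KO scratched and unscratched cells against 323 and 374 CPM in WT. The surfactant genes Sftpb and Sftpc were higher in both KO libraries, with 93.2 and 106.9 CPM in KO against 22.8 and 25.6 CPM in WT for Sftpb, and 19.7 and 20.6 CPM against 6.38 and 5.72 CPM for Sftpc. Napsa had 1.16 and 1.29 CPM in KO against 1.89 and 1.49 CPM in WT. Abca3 had 175 and 185 CPM in KO against 165 and 176 CPM in WT, and Nkx2-1 had 131 and 138 CPM against 127 and 164 CPM. Sftpa1 and Sftpd were at 0 in every library. Leukocyte markers summed to 1.77 to 2.10 CPM and endothelial markers to 0.820 to 1.15 CPM, with Ptprc and Cdh5 at 0. The 6 fibroblast markers summed to 2649 and 2917 CPM in KO, against 2823 and 2888 CPM in WT, most of it from Dcn, while Col1a1 was 176 and 197 CPM in KO against 16.4 and 21.4 CPM in WT. Structural RNAs set 2 libraries apart. A list of 8 such genes, chosen after their values were seen (among them n-R5-8s1, mt-Rnr1, mt-Rnr2, Rn7sk and Rpph1), summed to 8493 CPM in KO scratched, 2766 in KO unscratched, 1794 in WT scratched and 7420 in WT unscratched cells.

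A pyrimidine run at the annotated start was found in a minority of the members' promoters. The windows here run from 40 bases before to 25 bases from the RefSeq transcript start (RefSeq, GRCm38.p6), printed on the gene's strand. Rpl15 (chr14:18270962-18271026, minus strand), Rps6 (chr4:86857343-86857407, minus strand), Rplp2 (chr7:141447611-141447675, plus strand) and Rpl35a (chr16:33056442-33056506, plus strand) are shown because a pyrimidine run begins at the annotated start, with run lengths of 13, 9, 5 and 8 letters. Rplp0 (chr5:115559427-115559491, plus strand) and Rpl11 (chr4:136053369-136053433, minus strand) are shown as members without a run there. The windows of the other annotated starts of Rpl35a, which begin at 33056413 and 33056474, have no run at the start. Capitals mark a C at the start and the unbroken C and T letters that follow it, where at least 4 of them follow.

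Rpl15: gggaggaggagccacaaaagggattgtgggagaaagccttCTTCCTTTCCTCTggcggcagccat
Rps6: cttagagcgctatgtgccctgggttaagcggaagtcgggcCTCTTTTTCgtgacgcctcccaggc
Rplp2: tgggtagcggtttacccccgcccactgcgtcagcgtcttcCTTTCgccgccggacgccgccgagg
Rpl35a: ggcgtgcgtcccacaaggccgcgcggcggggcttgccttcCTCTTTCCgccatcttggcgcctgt
Rplp0: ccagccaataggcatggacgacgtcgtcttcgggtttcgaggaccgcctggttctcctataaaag
Rpl11: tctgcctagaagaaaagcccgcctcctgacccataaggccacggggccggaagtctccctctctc

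Such a run stood at the start in 13 of 73 member promoters, or 17.8%, against 2.51% of the 32851 promoters in the same table. Within 5 bases of the start the shares were 42.5% and 18.3%. These windows belong to 61 members, since some have several annotated starts, and only the gene's own strand was searched. Annotated starts can lie a few bases from the start used in these cells, so a window without a run says only that these letters are not there. The 13 members with a run at the start and the 47 tested members without it had KO minus WT log2 differences with medians of 0.24 and 0.23 in scratched cells and 0.40 and 0.34 in unscratched cells. No test separates these groups, because each comparison has 1 library a side.

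The family made up a larger share of all counts in both KO libraries than in both WT libraries. It took 2.699% of counts in KO scratched, 2.76% in KO unscratched, 2.34% in WT scratched and 2.15% in WT unscratched cells. Its summed CPM was 1.17 times the WT level in KO scratched cells (95% interval 1.16 to 1.17) and 1.28 times in KO unscratched cells (1.28 to 1.29). The scratched to unscratched ratio of the sum was 0.984 in KO cells and 1.08 in WT cells. The highest share and the lowest share therefore both belong to unscratched cells. In bulk RNA, more ribosomal protein mRNA in each cell and a larger proportion of cells rich in it cannot be told apart.

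The large and the small subunit kept nearly the same proportion in every library. Large subunit genes gave 61.1% of the family's counts in KO scratched (61.0% to 61.2%), 61.1% in KO unscratched and 61.1% in WT scratched cells, and 60.7% in WT unscratched cells (60.6% to 60.8%). The WT unscratched library was thus lower than the others by more than counting error, by under 1 percentage point. The KO to WT ratio of the summed large subunit was 1.17 in scratched and 1.29 in unscratched cells, and that of the small subunit 1.16 and 1.27. The fold between genotypes exceeded the gap between the subunits in both states.

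Levels of the tested members ran from 0.771 to 1166 RPKM in KO scratched cells and from 0.431 to 893 RPKM in WT unscratched cells, but the order of the members was nearly the same in every library. The authors' RPKM values, which compare genes per length, had a median of 245 in KO scratched, 247 in KO unscratched, 207 in WT scratched and 187 in WT unscratched cells over the 80 tested members. Over the 75 tested members that are not named as paralogs, the correlation of log2 CPM between libraries was 0.986 to 0.998, a description in which all points share gene length and library depth. Rplp0, the central protein of the ribosomal stalk that recruits elongation factors, led the large subunit with 1166, 1188, 976 and 859 RPKM in KO scratched, KO unscratched, WT scratched and WT unscratched cells. Its stalk partner Rplp1 followed with 1138, 1126, 877 and 818 RPKM. Both genes were higher in both KO libraries than in either WT library. The lowest large subunit levels in WT unscratched cells were those of Rpl3l, at 0.431, Rpl24, at 0.876, and Rpl22l1, at 5.87 RPKM.

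Rpl32 came next with 971, 981, 859 and 753 RPKM, in the same library order. Among the small subunit genes, Rps15, a protein of the head of the subunit, was highest with 956, 961, 892 and 893 RPKM. Unlike the stalk genes, its KO and WT levels lay close together. Rps21 followed, with 490 RPKM in WT unscratched cells. The lowest small subunit levels were those of Rps15a, at 41.7 RPKM in WT unscratched cells, Rps19, at 58.9, and Rps13, at 66.5. These low ranks rest partly on the length used, since the RPKM values correspond to 5154 bases for Rps15a, 2644 for Rps19 and 2351 for Rps13. Per kilobase of the longest principal transcript, Rps13 ranked 16 of 30 and Rps19 ranked 22 of 30 in WT unscratched cells. Rps15a stayed last, but both measures use nearly the same length for it, 5154 and 5179 bases, so its rank is no separate check. Rps15 and Rplp0 stayed first in their subunits per kilobase of the longest principal transcript.

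**Figure D1:**
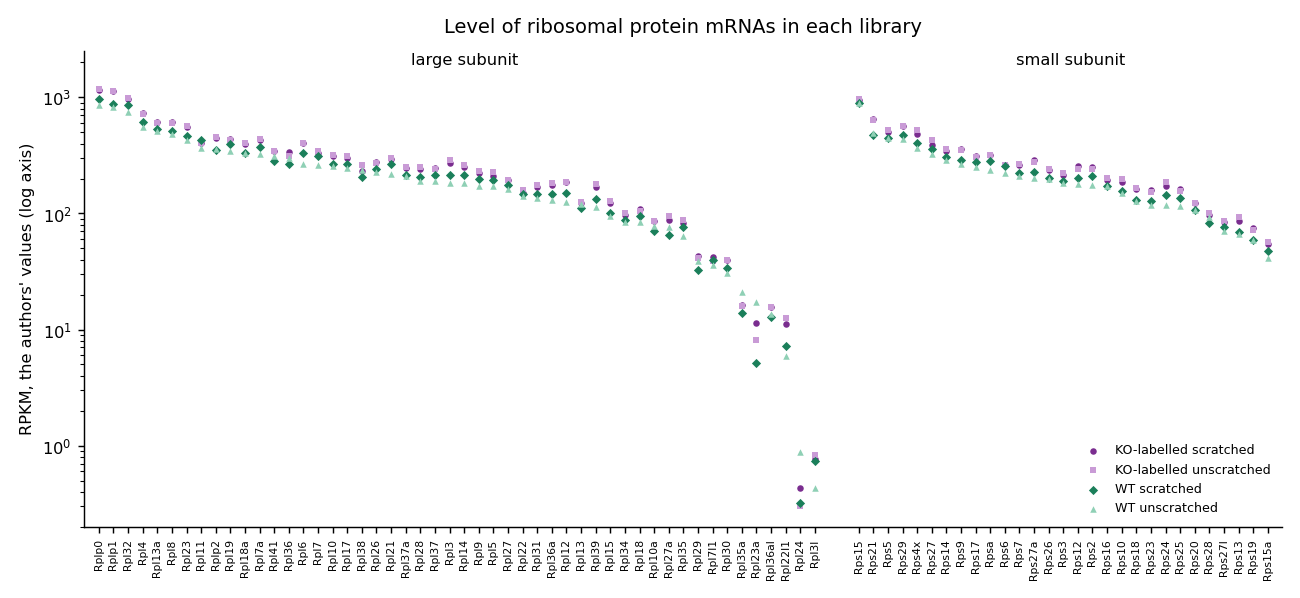
RPKM (log axis) of 79 ribosomal protein genes in the 4 libraries, large subunit left and small subunit right, each ordered by its WT unscratched level. One point is 1 library. For most genes the 2 KO points lie above the 2 WT points, and Rpl24 and Rpl3l lie below 1 RPKM in every library.

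Between KO and WT cells, nearly all members were shifted the same way by a small amount. The tested members were the 80 that reached 1 CPM in at least 1 library, out of 12362 such genes in all, and 0 of them reached it in KO libraries only. Their median log2 difference was 0.23 in scratched cells (0.23 for the large and 0.24 for the small subunit) and 0.34 in unscratched cells (0.34 and 0.36), beside a median of 0.00 over all tested genes in each. The difference lay above 0 in 79 and 78 of the 80 members, and in 77 of them in both states. The 2447 other genes above 100 CPM in every library had medians of -0.01 and -0.00, against 0.23 and 0.35 for the 68 members at that level.

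A member was called different when its log2 difference reached 0.32 in size, the fold minimum, and its counting interval excluded a ratio of 1. In scratched cells 13 members were called higher (9 large, 4 small) and 0 lower, where 7.27% and 5.38% of all tested genes were called higher and lower. In unscratched cells 45 members were called higher (27 large, 18 small) and 2 lower, where the background was 8.7% and 7.79%. Called higher in both states were 8 members, Rpl3, Rpl22l1, Rpl39, Rplp1, Rplp2, Rps12, Rps21 and Rps27a, where 4.56% of all tested genes were. In 75 of the 80 members both KO libraries stood above both WT libraries, a pattern shown by 28.5% of all tested genes. The 5 exceptions were Rpl7l1, Rpl11, Rpl23a, Rpl35a and Rpl38.

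**Figure D2:**
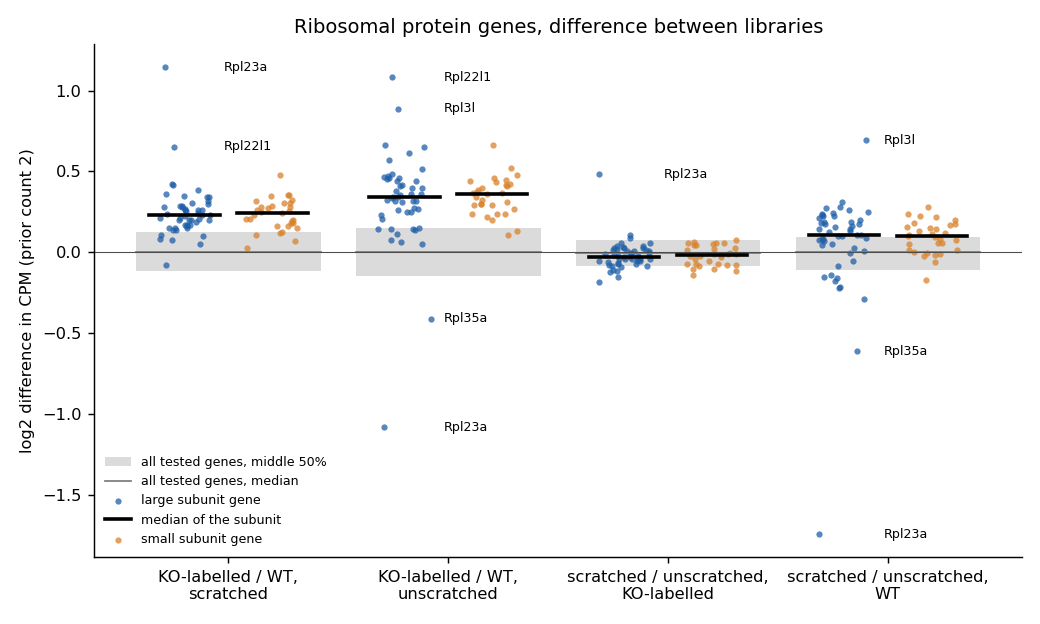
Log2 difference in CPM of each tested large subunit gene (49, blue) and small subunit gene (31, orange) in the 4 comparisons, with each subunit's median as a black bar. The grey band holds the middle 50% of all 12362 tested genes. Both subunit medians lie above the band in the KO to WT comparisons, while some single genes do not. After the scratch the medians lie just above the band in WT cells and within it in KO cells. The labelled genes are Rpl23a, Rpl35a, Rpl22l1 and Rpl3l where their difference exceeds 0.4 in size.

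An additive fit of genotype and scratch over the 4 libraries gave the one test that the design allows. With edgeR's quasi-likelihood test and Benjamini-Hochberg adjustment at 0.05, 67 of 80 members rose in KO cells (39 large, 28 small) and 0 fell, against 12.2% and 11.0% of all tested genes. The fit has 1 residual degree of freedom, which is how far the scratch response differs between genotypes. Most of the spread used for each gene is borrowed from all tested genes, with a median of 11.6 prior degrees of freedom. The standard errors are therefore not each gene's own error, and the p-values compare these libraries. Before adjustment 72 members were higher and 0 lower at p under 0.05, and DESeq2 and limma-voom called 54 and 70 higher and 0 lower. The median fitted genotype effect of the members was 0.28 with a median standard error of 0.06, on the log2 scale.

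The 3 stalk genes, whose proteins form the flexible arm that activates the elongation factors, were among the 67 of 80 members that rose. The median fitted effect of the members was 0.28. Rplp0 (chromosome 5, 115559467 to 115563727) had 1584 and 1615 CPM in KO scratched and unscratched cells against 1319 and 1168 CPM in WT, with a fitted log2 effect of 0.37 ± 0.06 (SE; edgeR adjusted p = 0.001476). Rplp1 (chromosome 9) had 568 and 563 CPM in KO against 436 and 409 CPM in WT, an effect of 0.42 ± 0.05 (adjusted p = 0.0001503). Rplp2 (chromosome 7) had 429 and 441 CPM in KO against 335 and 348 CPM in WT, an effect of 0.35 ± 0.05 (adjusted p = 0.0004251). For all 3 genes the lower KO library stood above the higher WT library, and the KO to WT ratio of Rplp2 was nearly equal in the 2 states, at 1.28 and 1.27.

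Around the peptidyl transferase centre, Rpl3 and Rpl10 both rose but by different amounts. Rpl3, a core protein close to the catalytic centre, had 514 and 544 CPM in KO scratched and unscratched cells against 404 and 346 CPM in WT, and its ratio was 1.27 (1.24 to 1.30) in scratched and 1.57 (1.53 to 1.61) in unscratched cells. Rpl10, a late-joining protein that completes the large subunit in the cytoplasm, had 291 and 296 CPM in KO against 249 and 237 CPM in WT. Its ratio was 1.17 (1.13 to 1.20) in scratched and 1.246 (1.21 to 1.29) in unscratched cells, with a fitted effect of 0.27 ± 0.05 (edgeR adjusted p = 0.003341), beside 0.50 ± 0.07 (adjusted p = 0.0002371) for Rpl3.

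Rpl5 and Rpl11, which join the ribosome together with the 5S RNA and which bind Mdm2 when assembly is disturbed, had different fitted effects. Rpl5 had 429 and 467 CPM in KO scratched and unscratched cells against 399 and 350 CPM in WT, and it rose (0.26 ± 0.07, edgeR adjusted p = 0.01409). Rpl11 (chromosome 4, 136028265 to 136053428) had 373 and 374 CPM in KO against 394 and 337 CPM in WT, so the WT libraries lay on both sides of the KO libraries (0.04 ± 0.06, adjusted p = 0.711). In scratched cells it was the only member of the 80 below 0, with a ratio of 0.947 (0.924 to 0.969). Its ratio in unscratched cells was 1.11 (1.08 to 1.14). The tested genes of chromosome 4 as a whole were lower in KO cells, with median log2 differences of -0.16 in scratched and -0.17 in unscratched cells. With these medians taken off, Rpl11 stood at 0.08 and 0.32, where Rpl5 on chromosome 5 stood at 0.11 and 0.42 with nothing taken off.

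Among small subunit proteins with known roles, Rps3, Rps14, Rpsa and Rps27a rose and Rps6 did not pass the test. Rps6, the substrate of S6 kinase, had 296 and 298 CPM in KO scratched and unscratched cells against 290 and 253 CPM in WT (0.13 ± 0.06, edgeR adjusted p = 0.1322), with ratios of 1.02 (0.993 to 1.05) and 1.18 (1.14 to 1.22). Rps3, which sits at the mRNA entry and also has roles in DNA repair, had 686 and 713 CPM in KO against 604 and 580 CPM in WT. Rps14, whose loss in the human 5q deletion impairs red cell formation, had 339 and 358 CPM in KO against 303 and 288 CPM in WT. Both had a fitted effect of 0.24 ± 0.06, with edgeR adjusted p = 0.008921 for Rps3 and 0.008943 for Rps14.

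Rpsa, also known as the laminin receptor, had 623 and 618 CPM in KO scratched and unscratched cells against 542 and 460 CPM in WT (0.31 ± 0.06, edgeR adjusted p = 0.003341). Rps27a, which is made as a fusion with ubiquitin, had 267 and 256 CPM in KO against 209 and 186 CPM in WT (0.41 ± 0.05, adjusted p = 0.0002418). Rps21 had 316 and 306 CPM in KO against 226 and 236 CPM in WT, and its ratio of 1.39 (1.35 to 1.44) in scratched cells was the highest of the small subunit. Rps24 had 705 and 758 CPM in KO against 580 and 478 CPM in WT, and its ratio of 1.59 (1.55 to 1.62) in unscratched cells was the highest of the small subunit there, beside 1.22 (1.19 to 1.24) in scratched cells. The genes with the largest ratio therefore differed between the states. RPS24 and RPS19 are among the genes mutated in human Diamond-Blackfan anaemia.

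The members named as paralogs had both some of the largest and some of the smaller differences. Rpl22l1, a close relative of Rpl22 that can take its place in the large subunit, had 21.4 and 23.8 CPM in KO scratched and unscratched cells against 13.6 and 11.2 CPM in WT. Both KO libraries lay above both WT libraries, and it rose (0.86 ± 0.10, edgeR adjusted p = 0.0001112), with ratios of 1.57 (1.40 to 1.78) in scratched and 2.12 (1.85 to 2.44) in unscratched cells. Its parent Rpl22 had 308 and 324 CPM in KO against 298 and 293 CPM in WT and did not pass the test (0.10 ± 0.05, adjusted p = 0.2164). Rpl3l, a muscle form of Rpl3 in mouse, was at 1.06 and 1.15 CPM in KO against 0.999 and 0.594 CPM in WT, from 16 to 51 counts a library. Its intervals, 0.657 to 1.75 in scratched and 1.04 to 3.76 in unscratched cells, were the widest of the tested members on the log2 scale.

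Rpl7l1, a relative of Rpl7 that acts in early assembly in human cells, had 110 and 102 CPM in KO scratched and unscratched cells against 104 and 94 CPM in WT (0.10 ± 0.05, edgeR adjusted p = 0.2114), whereas Rpl7 had 528 and 552 CPM against 494 and 419 CPM and rose (0.25 ± 0.07, adjusted p = 0.01886). Rpl36al, which differs little from Rpl36a, had 19.9 and 20.02 CPM in KO against 16.4 and 17.3 CPM in WT (0.25 ± 0.08, adjusted p = 0.05076), and Rpl36a had 144 and 148 CPM against 120 and 106 CPM and rose (0.37 ± 0.06, adjusted p = 0.001069). Rps27l, a p53 target, had 48.5 and 49.8 CPM in KO against 43.6 and 40.6 CPM in WT and rose (0.22 ± 0.06, adjusted p = 0.01764), as did Rps27 (0.27 ± 0.07, adjusted p = 0.01245). Of the 5 paralog-named members, 2 rose, and of their 5 parents 4 rose. Reads shared between such copies could be split or left out by the counting, so single values of these genes are uncertain. The 272 genes named as ribosomal protein pseudogenes were given few counts. They held 0.401%, 0.428%, 0.415% and 0.507% as many counts as the members in KO scratched, KO unscratched, WT scratched and WT unscratched cells. Reads that match both a member and a pseudogene may have been left out of both, so these shares do not measure such losses.

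**Figure D3:**
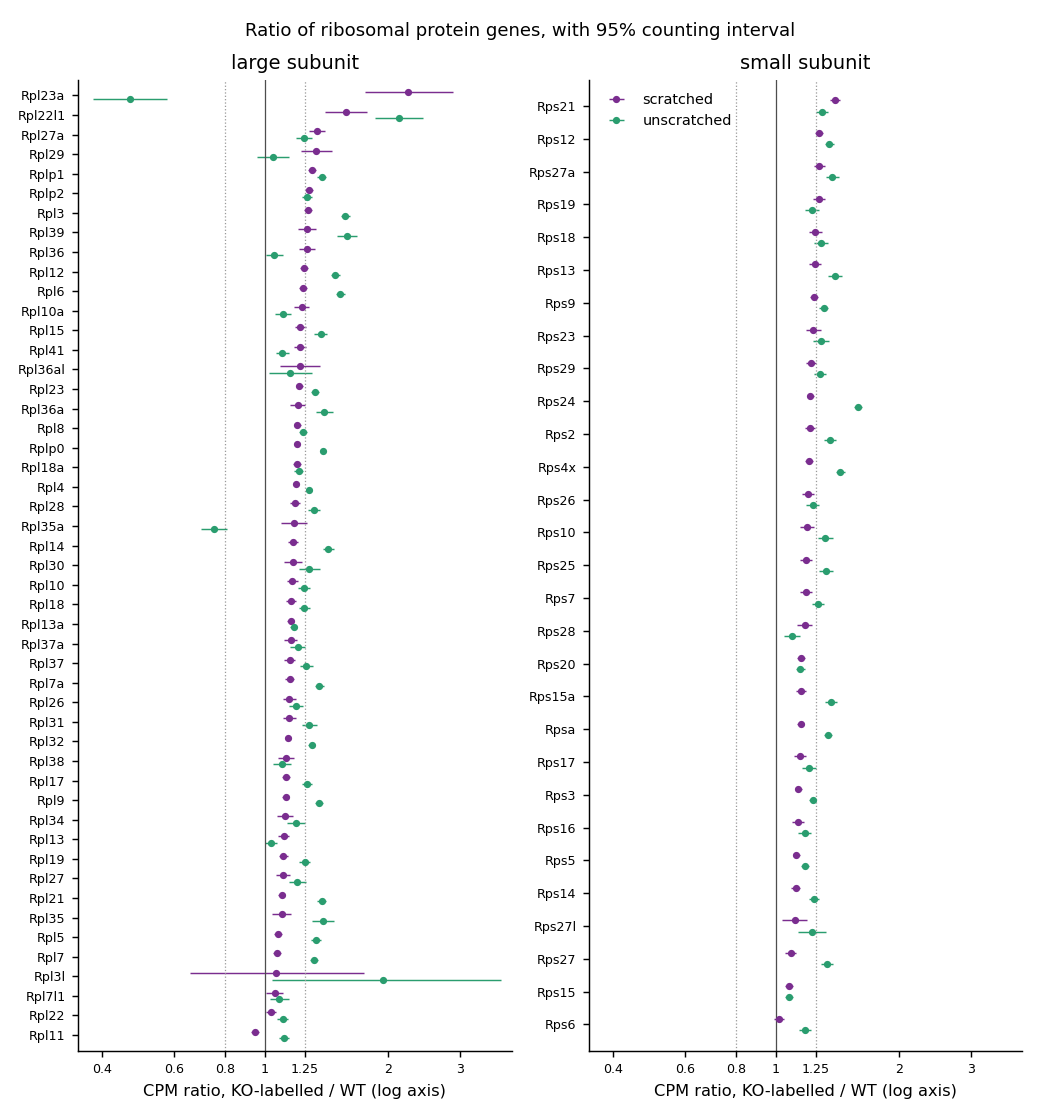
CPM ratio of KO to WT (log axis) for 78 tested members in scratched (purple) and unscratched (green) cells, large subunit left and small subunit right, ordered by the scratched ratio. Bars are exact 95% intervals for counting error, and dotted lines mark the fold minimum in either direction. Rpl23a and Rpl35a are the only 2 members below the lower line, both in unscratched cells.

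The genotype test was not passed by 13 members, among them Rpl3l, Rpl7l1, Rpl11, Rpl13, Rpl22, Rpl23a, Rpl29, Rpl35a, Rpl36al, Rpl38, Rps6 and Rps15. Rps15, the most abundant small subunit mRNA, had a ratio of 1.08 in both states (0.11 ± 0.05, edgeR adjusted p = 0.1696). Rpl13 had 241 and 248 CPM in KO scratched and unscratched cells against 217 and 240.1 CPM in WT, so its unscratched libraries were close. Chromosome 4 holds 4 of these, Rpl11, Rpl22 and Rps6 among them, out of 5 tested members there, and Rps20 was the one of the 5 that rose (0.20 ± 0.05, edgeR adjusted p = 0.01204). The tested genes of chromosome 4 as a whole, 797 in number, were lower in KO cells, with a median log2 difference of -0.16 in scratched and -0.17 in unscratched cells. On the other 18 chromosomes that hold a member, the medians lay between -0.08 and 0.07 in scratched and between -0.06 and 0.08 in unscratched cells. In all 8 stretches of 20 Mb along chromosome 4, the median was between -0.20 and -0.13 in scratched and between -0.20 and -0.11 in unscratched cells.

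With the median of their chromosome taken off, the chromosome 4 members lay on both sides of the family's median in each state. In scratched cells Rpl11 then stood at 0.08, Rps6 at 0.19, Rpl22 at 0.21 and Rps20 at 0.37, where the family's median was 0.23. In unscratched cells they lay between 0.32 and 0.41, where the family's median was 0.35. Under that measure all 80 members were above 0 in scratched cells and 78 in unscratched cells. The number of chromosome copies in the 2 lines was not measured and its part in these values was not tested. This comparison was chosen after the values were seen. Chromosome 7, which holds the most tested members (14), had medians of all genes of 0.01 and -0.01, and all 14 members there rose.

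The difference between KO and WT cells was smaller after the scratch than before it for most members. The KO minus WT log2 difference in scratched cells less that in unscratched cells had a median of -0.11 over the members (-0.13 for the large and -0.11 for the small subunit) and of -0.01 over all genes. It was smaller beyond its counting interval in 52 members and larger in 10, where 13.6% and 12.4% of all tested genes were. The lowest values were those of Rpl3l, at -0.81 (-1.89 to 0.28), Rpl22l1, at -0.43 (-0.69 to -0.17), and Rps24, at -0.38 (-0.43 to -0.34). On the other side stood Rpl23a, Rpl35a, at 0.65 (0.50 to 0.80), Rpl29, at 0.35 (0.17 to 0.53), and Rpl36, at 0.27 (0.17 to 0.36). With 1 library per condition these intervals cover counting error, and the interaction itself has no test against spread between cultures. It also sets KO scratched and WT unscratched cells, high in structural RNA (8493 and 7420 CPM), against the other libraries. Those, KO unscratched and WT scratched cells, had 2766 and 1794 CPM. The interaction and this library difference cannot be told apart, and the part of structural RNA was not tested.

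**Figure D4:**
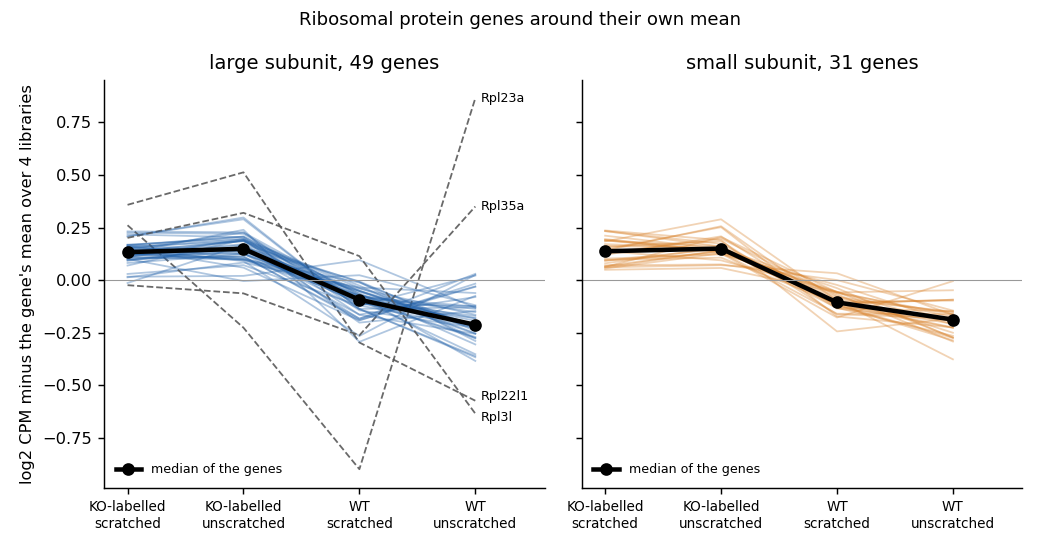
Log2 CPM of each tested member minus its own mean over the 4 libraries, for the large subunit (left) and the small subunit (right). Thin lines are genes, dashed where named, and the thick line is the median. Both medians are nearly level across the 2 KO libraries and higher in WT scratched than in WT unscratched cells.

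No member passed the scratch test of the additive fit. That test averages the KO and WT responses, so opposite responses can cancel. Rpl23a, at -1.74 in WT and 0.48 in KO cells, had an edgeR adjusted p of 0.506. In KO cells the median log2 difference between scratched and unscratched libraries was -0.02 (-0.03 for the large and -0.02 for the small subunit), and in WT cells it was 0.11 (0.11 and 0.10), beside 0.00 over all genes. At the same fold minimum, 1 member was higher and 0 were lower in KO cells, with a background of 1.38% and 2.31%. In WT cells 0 were higher and 2 lower, with a background of 1.89% and 4.6%. By edgeR's quasi-likelihood test 0 members rose and 0 fell, where 0.518% of all tested genes rose and 0.518% fell. At an unadjusted p under 0.05 there were 6 higher and 4 lower, and DESeq2 and limma-voom called 0. Rpl38 had the lowest adjusted p, 0.09615, and the lowest log2 difference in KO cells, -0.18, where Rpl22l1 stood at -0.15 and Rps27 at -0.14. The highest values in KO cells after Rpl23a were those of Rpl7l1, at 0.11, and Rpl36, at 0.09. In WT cells the highest values were those of Rpl3l, at 0.69 from few counts, Rpl6, at 0.31, and Rpl21, at 0.28, and Rpl29 was the lowest, at -0.29, after Rpl23a and Rpl35a.

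Rpl23a, a protein at the exit of the nascent chain tunnel, had a different order of libraries from the rest of the family. It stood at 6.70 CPM in KO scratched, 4.78 in KO unscratched, 2.996 in WT scratched and 10.2 in WT unscratched cells, from 84 to 322 counts. The KO to WT ratio was 2.23 (1.75 to 2.88) in scratched and 0.469 (0.380 to 0.577) in unscratched cells, and the scratched to unscratched ratio was 1.40 (1.15 to 1.72) in KO and 0.294 (0.228 to 0.377) in WT cells. Rpl35a, a large subunit protein also linked to Diamond-Blackfan anaemia in people, had 46.5, 45.3, 39.4 and 60.3 CPM in the same order of libraries, with the WT unscratched library again highest. Its KO to WT ratio was 1.18 (1.097 to 1.27) in scratched and 0.751 (0.698 to 0.808) in unscratched cells. Its 2 KO libraries did not differ beyond counting error, with a scratched to unscratched ratio of 1.03 and an interval from 0.960 to above 1. The 2 libraries with the highest Rpl23a level, WT unscratched and KO scratched, were also the 2 with the highest summed structural RNA, and WT unscratched cells had the highest Rpl35a level. The part of structural RNA in these values was not tested.

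Overlapping annotation limits what can be read from single members. The Rpl23a locus (chromosome 11, 78180932 to 78183584, minus strand) shares 59.7% of its exon length with Tlcd1 on the other strand, and the strand setting of the counting is not given in the sources used here. Rpl35 shares more, 66.2% with Wdr38 on the other strand, and had 78.9 and 83.8 CPM in KO scratched and unscratched cells against 71.9 and 60.4 CPM in WT. Rpl35a, whose WT unscratched library was also its highest, shares 0% on either strand. Rpl24 stood at 0.291 and 0.203 CPM in KO against 0.214 and 0.594 CPM in WT, from 6 to 16 counts. For Rpl24 (chromosome 16, 55966275 to 55971435) 47.0% of the exon length lies under another gene on the same strand, Gm28037. Reads in such shared stretches may have been left out or given to the other gene. Rpl24 is the 1 member that was not tested.

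**Figure D5:**
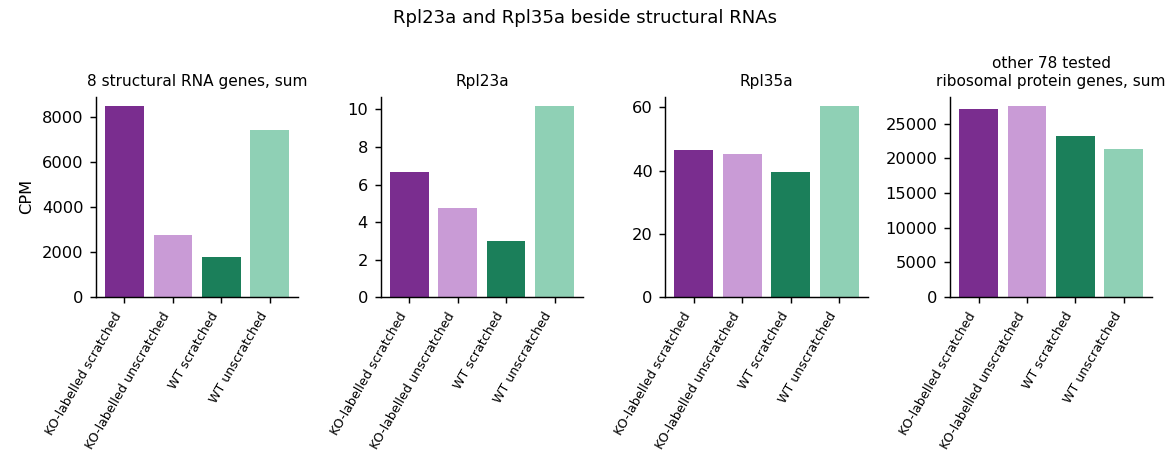
CPM in the 4 libraries of 8 structural RNA genes summed, of Rpl23a, of Rpl35a and of the other 78 tested ribosomal protein genes summed. One bar is 1 library and every axis starts at 0. Structural RNA and Rpl23a are highest in KO scratched and WT unscratched cells, whereas the family's sum is highest in the KO libraries at 27072 and 27520 CPM, against 23202 and 21390 CPM in WT.

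The KO and WT libraries were also paired by their structural RNA. KO unscratched against WT scratched cells, the 2 libraries low in structural RNA, gave a median of 0.25 with 16 members called higher and 0 lower, where 9.64% and 5.9% of all tested genes were. KO scratched against WT unscratched cells, the 2 libraries high in it, gave 0.33 with 41 higher and 2 lower, where 8.77% and 9.49% of all tested genes were. These pairs differ in scratch as well as genotype and were chosen after the values were seen, so the part of structural RNA in the family's shift was not tested. In each of the pairs at least 77 of the 80 members were above 0. For the 75 members with both KO libraries above both WT libraries this was fixed in advance, so the count is no separate check.

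Most of the ribosomal protein genes outside the name rule, and of a list of other RNAs with a pyrimidine tract, rose as well. Of the 4 ribosomal proteins with other names, Rack1, Rps3a1 and Fau rose and 0 fell, by the fit in which 12.2% of all tested genes rose. Rack1, a scaffold on the small subunit, had 988 and 1026 CPM in KO scratched and unscratched cells against 859 and 793 CPM in WT (0.29 ± 0.06, edgeR adjusted p = 0.00508). Of 21 other RNAs listed as known to start with a pyrimidine tract 20 were tested, 18 rose and 0 fell. Their medians were 0.24 in scratched and 0.35 in unscratched cells. The list is wider than the translation machinery, since it holds the non-coding Gas5 and Snhg12 and the intermediate filament gene Vim. Of the 15 listed RNAs with a promoter entry, 3 (20%) had a run at the annotated start and 8 (53.3%) within 5 bases. Translation elongation factor 1A (Eef1a1) had 4144 and 4302 CPM in KO against 3415 and 2925 CPM in WT (0.42 ± 0.07, adjusted p = 0.000842), and the poly(A)-binding protein gene Pabpc1 had 745 and 728 CPM against 522 and 527 CPM (0.49 ± 0.05, adjusted p = 5.83e-05). Eif3h and Hnrnpa1 were the 2 that did not pass, at adjusted p of 0.0813 and 0.0913.

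Of 17 genes that control the translation or supply of ribosomal protein mRNAs, 4 rose and 0 fell, where 12.2% and 11.0% of all tested genes did, and their median log2 difference was 0.05 in scratched and -0.01 in unscratched cells. Myc, which drives transcription of ribosomal genes, had 57.3 and 48.4 CPM in KO scratched and unscratched cells against 37.9 and 27.1 CPM in WT (0.71 ± 0.07, edgeR adjusted p = 1.68e-05). Eif4ebp1, the translational repressor released by mTOR, had 44.7 and 31.5 CPM in KO against 34.2 and 24.96 CPM in WT (0.36 ± 0.07, adjusted p = 0.00223). Myc and Eif4ebp1 were also the 2 genes of the list that rose with the scratch (adjusted p = 0.03 and 0.00945). Larp1, which binds the pyrimidine tract, and the S6 kinase gene Rps6kb1 rose as well, by 0.21 ± 0.05 (adjusted p = 0.0125) and 0.16 ± 0.05 (adjusted p = 0.0412), while Mtor was at 209 and 215 CPM in KO against 216 and 233 CPM in WT. Of 8 dedicated chaperones of single ribosomal proteins 7 were tested, and 1 rose and 0 fell, a count near that background. It was Heatr3, which carries Rpl5 (0.22 ± 0.05, adjusted p = 0.00556). Grwd1, the chaperone of Rpl3, had 35.9 and 29.8 CPM in KO against 35.7 and 28.1 CPM in WT and did not pass (0.05 ± 0.07, adjusted p = 0.681).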

How the data were processed

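The authors deposited raw read counts per Ensembl gene and RPKM values for part of the genes. The submitters' processing notes name the build mm10 and, with no role for each, STAR 2.7.9a, Trimmomatic 0.39, edgeR 3.32.1 and HTSeq 0.11.3. Annotation release and strand setting are not given in the labels or files. A strand-specific mRNA library kit was used, per the labels' protocols. Each group is 1 library, so no p-value was computed for a single comparison. Counts were scaled with TMM factors (0.995 to 1.00), and ratios of CPM carry exact 95% Clopper-Pearson intervals on the split of the counts. Log2 differences used a prior count of 2. The additive edgeR quasi-likelihood fit (biological coefficient of variation 5.48%) was the test across genes. DESeq2 and limma-voom served as alternatives. The reads carry no molecular identifiers, so intervals may be too narrow. Positions, overlaps and principal transcripts came from GENCODE M21 (mm10). Statistics used edgeR 4.0.16, limma 3.58.1 and DESeq2 1.42.0 in R 4.3.3, with scipy 1.17.1 and pandas 2.3.3 in Python 3.11.15. Named genes were the 3 highest and 3 lowest in each comparison, the 3 highest and lowest RPKM of each subunit, the paralogs and a set of members chosen by role; Rpl36, Rps20, Rpl29 and the members called in both states or not passing the test were named after their values were seen. The members and lists were chosen with earlier results of these data known. Values of some single genes are not reported here, and such genes remain in the counts, medians and sums.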

Additional observations from a re-analysis of the deposited data

Results flagged for a closer look

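Rpl23a responded to the scratch in opposite directions in KO and WT cells, higher in KO scratched than KO unscratched cells and lower in WT scratched than WT unscratched cells. The KO response less the WT response was 2.23 on the log2 scale (counting interval 1.77 to 2.68). With 1 library per condition the difference was not tested against spread between cultures. Structural RNA was high in the same 2 libraries as Rpl23a, and its part was not tested.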

How the results depend on the processing

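The medians of the members kept their sign under total counts, upper quartile factors, DESeq2 size factors, the RPKM values (pseudocount 0.1), a prior count of 0.5 and removal of an abundance or a length trend. Counts of called members depend on the fold minimum. At 1.5-fold and 1.1-fold, 2 and 67 members were called between KO and WT scratched cells, 7 and 74 between KO and WT unscratched cells, and 0 and 4 with the scratch in KO cells, while 42 were called with the scratch in WT cells at 1.1-fold. Of these 42, 32 were higher and 10 lower in scratched cells. With no filter on low counts, 2 members passed the scratch test, both lower; the cause was not tested. Across other libraries, KO unscratched against WT scratched cells gave 16 called members and a median of 0.252, an alternative chosen after seeing the data, as was removing the chromosome median (0.23 in scratched and 0.35 in unscratched cells). Of 378 alternatives of the 63 called member values, 365 stayed past the fold minimum, 13 fell below it and 0 changed sign. At a false discovery rate of 0.01, 51 members rose with genotype. Depth limits Rpl3l and Rpl24. No paired analysis was possible because the labels give no replicate numbers and each group is 1 library.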
